A study of Saccharomyces cerevisiae with 24 samples.

Results

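The 10 histone genes of budding yeast (Saccharomyces cerevisiae) were followed through 8 groups of cultures, as the rows of the deposited table that carry their names, 10 of 7121 rows that name a gene. They are the 8 core genes HTA1, HTA2 (H2A), HTB1, HTB2 (H2B), HHT1, HHT2 (H3), HHF1 and HHF2 (H4), the gene of the H2A variant H2A.Z, HTZ1, and the linker histone gene HHO1. RNA was measured by poly(A)-selected sequencing in 24 libraries, 3 biological replicates in each group. Cultures of 4 genotypes, all in the BY strain background, were taken in starvation, after 48 h, or in log phase, that is, during exponential growth. Each genotype is 1 strain: hsh49::Q24P carries a point mutation in HSH49, nam8D lacks NAM8, mud1D lacks MUD1, and WT carries none of these changes. All grew in synthetic medium with histidine, leucine, uracil, lysine and 2% glucose. The mutated genes encode splicing factors: Nam8 and Mud1 belong to the U1 particle that binds the start of an intron, and Hsh49 to the U2 particle that binds its branch point. None of the 10 histone genes has an intron: each has 1 coding part in the reference annotation.

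A nucleosome wraps DNA around a core of H2A, H2B, H3 and H4. Yeast carries each core histone as a pair of genes, and the genes lie head to head in divergent pairs, H2A beside H2B and H3 beside H4, with a shared promoter between them. Their transcription peaks in S phase, when new DNA needs histones, through the activator Spt10 and the cell-cycle factor SBF, and is held back outside it by the HIR complex, which acts on all pairs except HTA2-HTB2. Unlike most histone mRNAs of animals, those of yeast carry a poly(A) tail, so that poly(A) selection retains them. H2A.Z is placed in nucleosomes beside promoters by the SWR1 complex, and Hho1 is a linker histone linked to chromatin compaction in stationary phase.

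Levels are in TPM, an abundance scaled by transcript length and to a fixed total in each library, so levels of different genes may be set side by side. The table holds no counts, and sequencing depth is therefore unknown. Spike-in RNAs took 13124 to 22815 TPM in the starvation libraries and 8033 to 12571 TPM in the log libraries. Replicates correlated across genes with r between 0.978 and 0.996, as a description. NAM8 stood at 0.0365 to 0.258 TPM in nam8D libraries and at 26.1 to 46.9 TPM in WT libraries, and MUD1 at 1.61 to 4.74 TPM in mud1D libraries and at 36.5 to 73.4 TPM in WT libraries. HSH49 carries a point mutation, so its level checks no label. LEU2, a gene that the genotype labels do not name, stood at 0.828 to 465.5 TPM in the mutant libraries and at 3979 to 5907 TPM in WT libraries, so WT and the mutants differ by more than the named genes; the part of this in the results was not tested. Of the mating type a markers, MFA1, MFA2, STE2 and BAR1 were above their alpha counterparts MF(ALPHA)1, MF(ALPHA)2 and STE3 by group mean in log phase. In starvation BAR1 was below STE3 in each mutant, at 2.39 to 2.46 TPM and 3.30 to 4.59 TPM by group mean, and in starved WT it stood at 8.22 TPM beside 8.24 TPM for STE3 and 9.88 TPM for MF(ALPHA)1. The starvation markers JEN1, SPG4 and MLS1 were higher in every starvation group than in any log group.

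The stretch between the genes of a divergent pair is shown because both genes of a pair are transcribed away from it. The gaps between start codons measured 817 bp for HTB1 and HTA1, 699 bp for HTA2 and HTB2, 646 bp for HHF1 and HHT1 and 676 bp for HHT2 and HHF2. The 300 bases centred on each gap, from the RefSeq build R64 on the plus strand, are given with matches to the Spt10 motif, TTCC and TTCNC with 6 bases of any kind between them, in capitals. This and the other motifs were searched on both strands.
HTB1 and HTA1, chrIV:914971-915270: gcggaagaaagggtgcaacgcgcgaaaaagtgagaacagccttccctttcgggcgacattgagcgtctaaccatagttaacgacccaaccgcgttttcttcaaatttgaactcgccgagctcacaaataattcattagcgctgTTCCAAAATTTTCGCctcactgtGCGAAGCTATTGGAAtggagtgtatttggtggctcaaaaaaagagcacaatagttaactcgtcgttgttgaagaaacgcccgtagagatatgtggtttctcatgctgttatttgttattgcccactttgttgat
HTA2 and HTB2, chrII:235992-236291: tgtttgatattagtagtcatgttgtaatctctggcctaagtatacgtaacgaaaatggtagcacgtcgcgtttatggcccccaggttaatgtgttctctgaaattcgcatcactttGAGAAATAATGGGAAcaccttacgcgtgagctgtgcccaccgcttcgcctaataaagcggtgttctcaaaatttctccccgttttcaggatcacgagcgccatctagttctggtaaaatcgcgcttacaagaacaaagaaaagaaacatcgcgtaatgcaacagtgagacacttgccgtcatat
HHF1 and HHT1, chrII:255858-256157: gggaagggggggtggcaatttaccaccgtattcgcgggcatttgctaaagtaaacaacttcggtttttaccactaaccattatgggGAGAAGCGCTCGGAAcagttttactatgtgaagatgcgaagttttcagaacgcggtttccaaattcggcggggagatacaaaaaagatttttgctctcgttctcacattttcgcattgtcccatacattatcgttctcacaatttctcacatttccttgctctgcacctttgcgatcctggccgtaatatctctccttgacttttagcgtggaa
HHT2 and HHF2, chrXIV:576239-576538: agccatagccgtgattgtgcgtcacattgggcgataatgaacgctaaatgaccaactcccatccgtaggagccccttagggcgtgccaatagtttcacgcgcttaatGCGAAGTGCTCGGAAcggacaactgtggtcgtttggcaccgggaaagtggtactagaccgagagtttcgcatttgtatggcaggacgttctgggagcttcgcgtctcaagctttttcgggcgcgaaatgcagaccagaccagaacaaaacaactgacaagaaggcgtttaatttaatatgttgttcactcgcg
The Spt10 motif had 2 matches between HTB1 and HTA1 and 1 in each of the other gaps, and 2.15% of 1117 such windows between divergent yeast genes held it. The SBF motif CNCGAAA had 2 matches between HTB1 and HTA1 and 2 between HHT2 and HHF2, and no match in the other windows; 15.2% of the 1117 windows held it. The MBF motif ACGCGT had 1 match, between HTA2 and HTB2, and 3.85% of windows held it. These are matches of letters and show no binding.

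Whether the copies of a pair can be told apart bears on the values of single core genes, copy shares and locus sums below. The coding sequences of each pair are therefore shown where they differ most, over 60 bases with the differing bases in capitals.
HTA1: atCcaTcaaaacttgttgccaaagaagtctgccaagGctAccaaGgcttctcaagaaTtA
HTA2: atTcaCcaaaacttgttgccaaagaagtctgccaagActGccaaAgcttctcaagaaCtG
HTB1: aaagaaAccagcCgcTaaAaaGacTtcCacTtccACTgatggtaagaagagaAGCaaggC
HTB2: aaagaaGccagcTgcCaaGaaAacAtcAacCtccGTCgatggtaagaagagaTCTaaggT
HHT1: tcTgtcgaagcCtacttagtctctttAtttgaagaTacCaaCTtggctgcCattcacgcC
HHT2: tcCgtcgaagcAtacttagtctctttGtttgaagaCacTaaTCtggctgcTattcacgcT
HHF1: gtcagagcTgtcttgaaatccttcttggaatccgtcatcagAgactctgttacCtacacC
HHF2: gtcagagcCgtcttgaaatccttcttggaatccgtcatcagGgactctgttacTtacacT
HTA1 and HTA2 were identical at 93.73% of 399 coding bases, HTB1 and HTB2 at 87.88% of 396, HHT1 and HHT2 at 93.19% of 411 and HHF1 and HHF2 at 97.44% of 312. The longest run shared by a pair was 80 bases, between the H4 genes, and the shortest such run was 35 bases, between the H2B genes. No stretch of 100 coding bases was the same in both copies of any pair, while 21.29% of 50-base stretches were the same in the H4 pair. The deposited values carry the name coco. The sources used here do not say how reads that match both copies were assigned, or how long the reads were. The split within a pair thus carries an uncertainty that the replicates do not show.

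In starvation most histone genes fell in all 4 genotypes, HTA2 and HTB2 by the largest amounts, while HHO1 did not fall in any; with spike-in scaling all 10 had negative differences in every genotype, HHO1 included. A gene passed when its limma adjusted p was under 0.05, and was called changed when its difference on the log2(TPM + 1) scale was also at least 1. In hsh49::Q24P 6 of 10 histone genes changed downward, where 14.1% of 6449 tested genes did; 9 passed downward (28.2% of tested genes) and 1 upward (53.3%). In nam8D 6 changed downward (10.3%), 9 passed downward (24.7%) and 0 upward (55.4%). In mud1D 6 changed downward (14.9%), 9 passed downward (28.7%) and 1 upward (52.2%). In WT 3 changed downward (9.01%), 8 passed downward (22.1%) and 0 upward (58.7%). The 6 genes of the mutants were HTA2, HTB1, HTB2, HHT1, HHF1 and HHF2 each time, and the 3 of WT were HTA2, HTB2 and HHF2. The median histone gene stood at -1.41, -1.14, -1.64 and -0.72 in hsh49::Q24P, nam8D, mud1D and WT, while the median of all tested genes stood at 0.39, 0.43, 0.36 and 0.47. The WT count rests on the scaling: with each library centred on its median gene 7 changed, with HHT1, HHT2, HHF1 and HTZ1 added. That centring also moved the calls over all tested genes, in WT to 1038 lower and 845 higher, where the deposited scale gave 581 and 1691. In hsh49::Q24P they moved to 1278 and 1253, where the deposited scale gave 910 and 1836, in nam8D to 1149 and 1017 (662 and 1770 as deposited) and in mud1D to 1334 and 1209 (959 and 1820 as deposited). In cultures, fewer cells in S phase and less RNA per cell cannot be told apart.

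**Figure D1:**
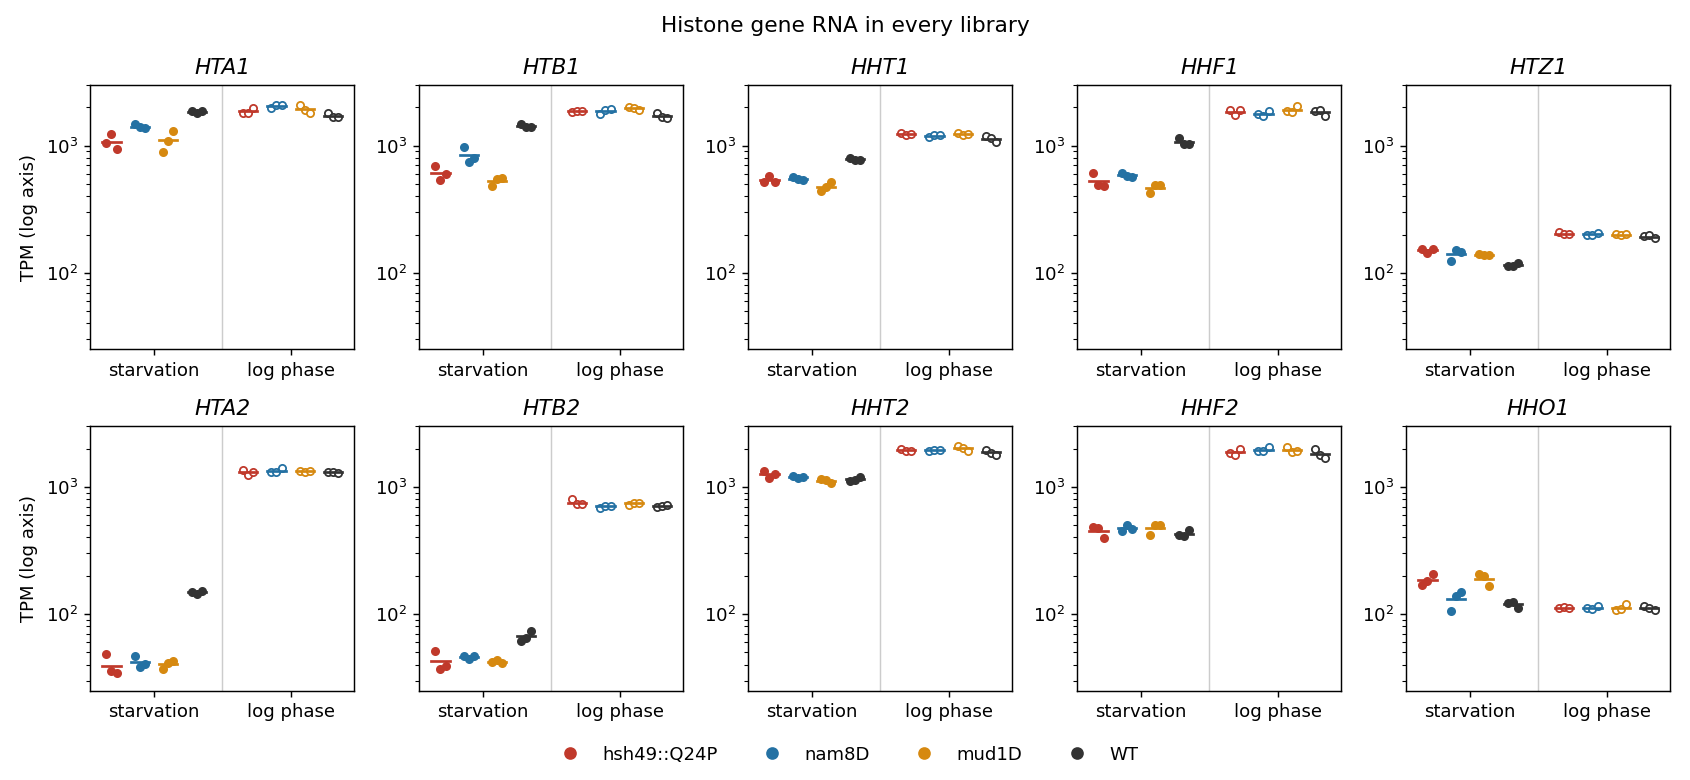
TPM of the 10 histone genes in each of the 24 libraries, on a log axis, with 1 panel for each gene; filled points are starvation libraries, open points log libraries, and bars are means of 3. HTA2 stands at 34.2 to 48.1 TPM in the mutant starvation libraries and at 1243 to 1409 TPM in log phase.

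HTA2 and HTB2, the H2A and H2B genes of one divergent pair, fell most. HTA2 stood at 48.1, 35.9 and 34.2 TPM in starved hsh49::Q24P cultures, at 47.2, 38.1 and 40.7 TPM in starved nam8D cultures, at 37.1, 41.0 and 42.9 TPM in starved mud1D cultures and at 149.7, 143 and 152 TPM in starved WT cultures. The 12 log libraries ran from 1243 to 1409 TPM with a median of 1314 TPM, so no starvation library came near them, and no starved mutant library reached a starved WT library. The log2 difference was -5.03 ± 0.0952 (SE) in hsh49::Q24P, -4.97 in nam8D, -5.01 in mud1D and -3.13 in WT, with limma adjusted p from 1.34e-19 to 2.06e-16. HTB2 stood at 51.3, 37.3 and 38.9 TPM in starved hsh49::Q24P cultures, at 47.1, 44.4 and 46.5 TPM in starved nam8D, at 41.8, 43.3 and 41.0 TPM in starved mud1D and at 61.6, 64.5 and 74.1 TPM in starved WT, and at 681 to 801 TPM in the log libraries. Its difference was -4.13 ± 0.0863, -3.90, -4.11 and -3.39 in the same order of genotypes. The order of HTB2 groups was like that of HTA2: log groups on top, then WT starvation, then the 3 starved mutants, whose ranges overlapped in a chain.

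HTA1 and HTB1, the other H2A and H2B pair, fell in the starved mutants, while in starved WT cultures they stood in or near the range of log phase. HTA1 stood at 1044, 1226 and 948 TPM in starved hsh49::Q24P cultures, at 1471, 1398 and 1367 TPM in starved nam8D cultures, at 898, 1087 and 1313 TPM in starved mud1D cultures and at 1872, 1816 and 1859.8 TPM in starved WT cultures, and at 1686 to 2104 TPM in the log libraries. The starved WT libraries lay inside this log range of all genotypes, and all starved mutant libraries lay below it. The log libraries of WT alone ran from 1686 to 1799 TPM, below each starved WT library. The difference from log phase was -0.80 ± 0.106, -0.54 and -0.82 in hsh49::Q24P, nam8D and mud1D (limma adjusted p from 4.64e-07 to 9.48e-05), and 0.10 ± 0.106 in WT (limma adjusted p = 0.384). With spike-in scaling the WT value was -0.20. HTB1 stood at 693, 532 and 595 TPM in starved hsh49::Q24P, at 979.9, 744 and 795 TPM in starved nam8D, at 485, 543 and 553 TPM in starved mud1D and at 1467, 1399 and 1406 TPM in starved WT, against 1645 to 2009.5 TPM in log phase. No starvation library of HTB1 reached the log range, and the WT libraries were the nearest to it. The log2 difference of HTB1 was -1.62 ± 0.0934, -1.16 and -1.90 in the mutants and -0.26 in WT (limma adjusted p = 0.0153). The small WT difference was 0.29 with quantile normalization, and without WT log replicate 1 it missed the threshold (limma adjusted p = 0.0607).

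Both H3 genes fell in every genotype, HHT2 by a like amount in WT and the mutants and HHT1 by more in the mutants. HHT1 stood at 518 to 578 TPM in starved hsh49::Q24P cultures, at 532 to 571 TPM in starved nam8D, at 439 to 514 TPM in starved mud1D, at 765 to 793 TPM in starved WT and at 1058 to 1262 TPM in log phase. The starved WT libraries of HHT1 lay between the starved mutants and log phase. Its log2 difference was -1.21 ± 0.0631, -1.12, -1.38 and -0.54. HHT2 stood at 1176 to 1333 TPM in starved hsh49::Q24P, at 1164 to 1216 TPM in starved nam8D, at 1077 to 1151 TPM in starved mud1D, at 1106 to 1205 TPM in starved WT and at 1794 to 2081 TPM in log phase. The 4 starvation ranges of HHT2 overlapped in a chain, so its level did not separate the starved mutants from starved WT. Its difference was -0.63 ± 0.0593, -0.70, -0.85 and -0.70.

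The H4 genes differed in how far WT followed the mutants. HHF1 stood at 609, 491 and 478 TPM in starved hsh49::Q24P cultures, at 611, 576 and 566 TPM in starved nam8D, at 423, 489 and 488 TPM in starved mud1D and at 1147, 1032 and 1035 TPM in starved WT, against 1706 to 2037 TPM in log phase. HHF2 stood at 485, 478 and 395 TPM in starved hsh49::Q24P, at 454, 504 and 471 TPM in starved nam8D, at 419, 504 and 501 TPM in starved mud1D and at 415, 409 and 459 TPM in starved WT, against 1677 to 2052 TPM in log phase. The starved WT libraries stood above every starved mutant library for HHF1 and among them for HHF2. The log2 difference of HHF1 was -1.81 ± 0.086, -1.61, -2.04 and -0.77, and that of HHF2 was -2.05 ± 0.0893, -2.05, -2.04 and -2.09. Limma adjusted p ran from 1.55e-14 to 8.02e-08 for HHF1 and from 2.61e-14 to 3.57e-14 for HHF2.

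**Figure D2:**
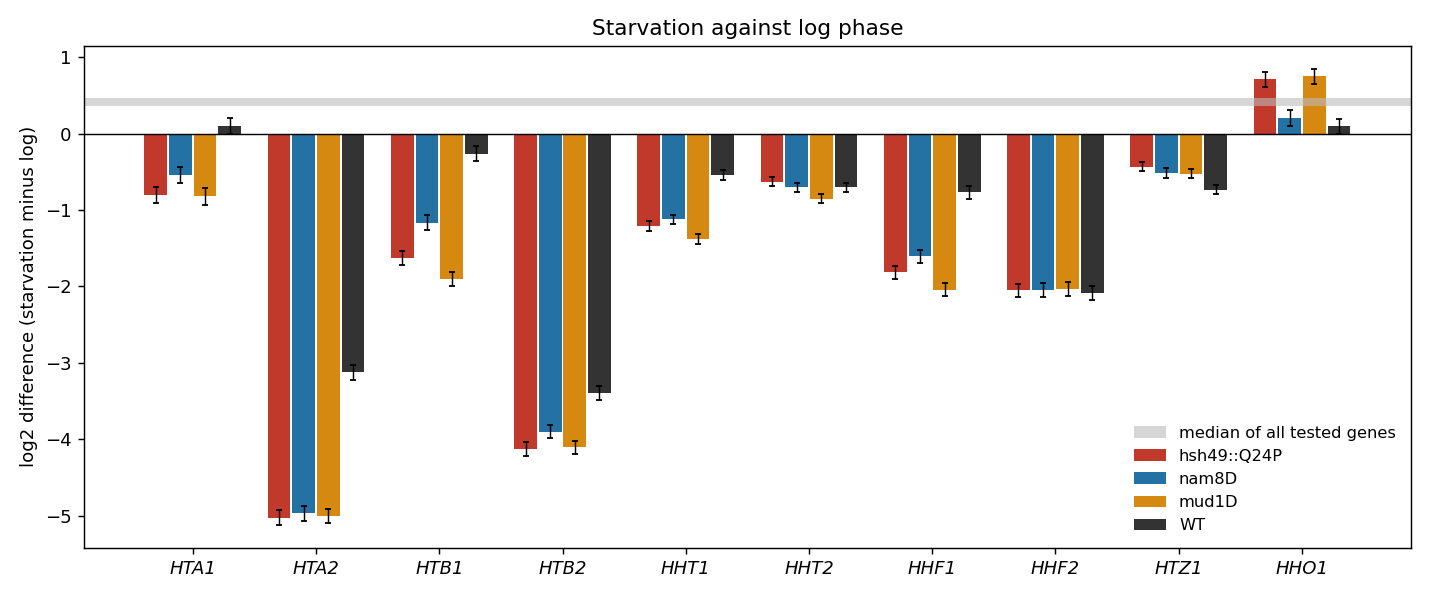
Difference between starvation and log phase on the log2(TPM + 1) scale for each histone gene and genotype; error bars are the limma standard error, and the grey band spans the median of all tested genes, 0.36 to 0.47. HTA2 and HTB2 have the longest bars, and HHF2 and HHT2 have bars of like length in WT and the mutants.

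The share of each copy within its pair does not depend on how a library was scaled. HTA2 gave 3.58 ± 0.788% of H2A RNA (mean ± SD, n = 3) in starved hsh49::Q24P, 2.88 ± 0.228% in starved nam8D, 3.59 ± 0.406% in starved mud1D and 7.42 ± 0.115% in starved WT, against 39.5% to 43.0% in the log groups. HTB2 gave 6.53%, 5.25%, 7.41% and 4.48% of H2B RNA in those starved groups and 27.3% to 29.4% in the log groups. Both H2A and H2B thus came nearly all from the HTA1-HTB1 locus in starvation. Averaged over genotypes, the log2 ratio HTA1/HTA2 was 4.02 higher in starvation and HTB1/HTB2 2.65 higher. Both had an exact permutation p of 1.25e-05, the smallest that 160000 arrangements within genotypes can give (two-sided; adjusted p = 2.92e-05 over 7 ratios), and for both every starvation library lay above every log library.

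HHT2 gave 69.9%, 68.4% and 70.2% of H3 RNA in starved hsh49::Q24P, nam8D and mud1D, 59.6% in starved WT and 60.9% to 62.2% in the log groups. HHF2 gave 46.3%, 44.9% and 50.4% of H4 RNA in the same starved mutants, 28.5% in starved WT and 48.6% to 52.8% in the log libraries. The starved WT libraries, at 26.6% to 30.7% for HHF2 and 58.2% to 60.8% for HHT2, lay below every starved mutant library in both pairs. With 3 libraries against 3, an exact permutation test of a ratio between a mutant and WT cannot go below p = 0.1. The log2 ratio HHT1/HHT2 was -0.34 in starvation minus log phase over all genotypes (exact permutation test, p = 0.000725, adjusted p = 0.000846), made of -0.58, -0.42 and -0.53 in the mutants and 0.16 in WT. HHF1/HHF2 was 0.50 (exact permutation test, p = 0.000363, adjusted p = 0.000508), made of 0.24, 0.44 and -0.00377 in the mutants and 1.32 in WT. Without WT the mean for HHF1/HHF2 was 0.22.

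**Figure D3:**
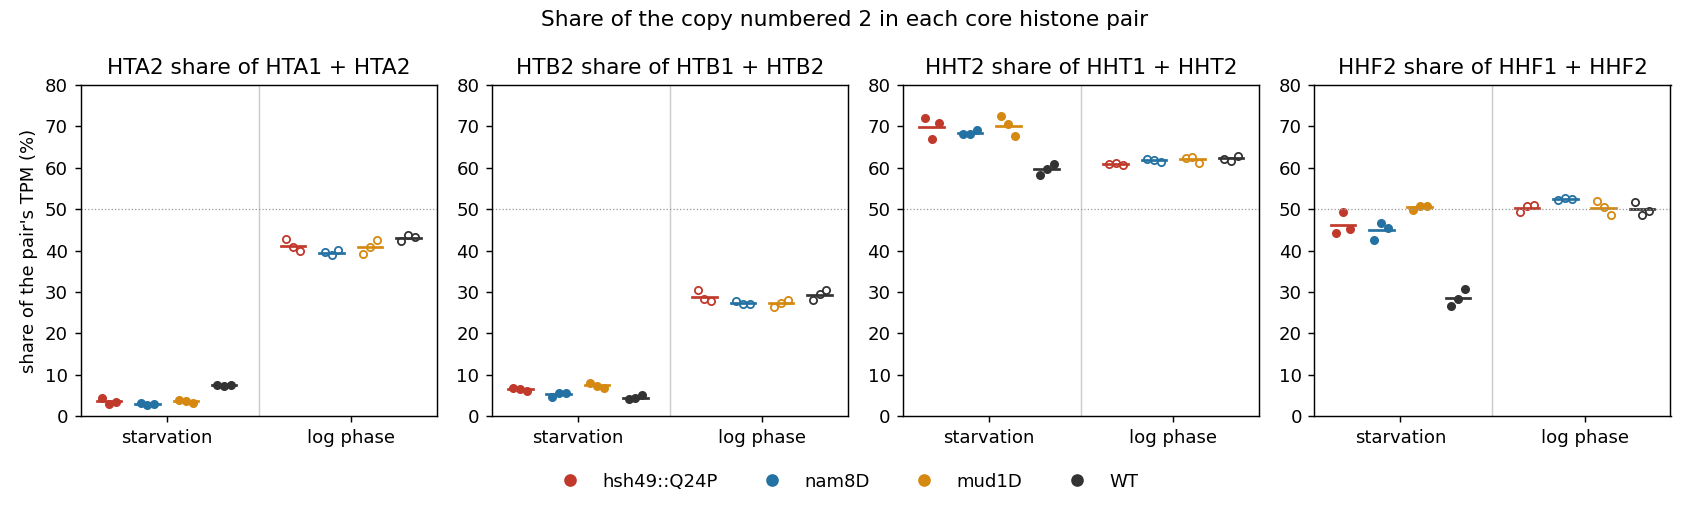
Share in percent of the copy numbered 2 in the summed TPM of its pair, for each library; filled points are starvation libraries, open points log libraries, bars means of 3, and the dotted line marks equal shares. HTA2 and HTB2 stand below 8% in every starvation library, and HHF2 drops to 28.5% on average in WT starvation.

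Summed over the locus, the divergent pairs behaved differently. The HTA2-HTB2 sum was 25.1 times, 23.2 times and 25.1 times lower in starved than in log-phase hsh49::Q24P, nam8D and mud1D cultures, and 9.35 times lower in WT. The HTA1-HTB1 sum was 2.21, 1.74 and 2.39 times lower in the mutants and 1.05 times lower in WT. The HHT1-HHF1 sum was 2.90, 2.63 and 3.35 times lower in the mutants and 1.60 times lower in WT. The HHT2-HHF2 sum was 2.23, 2.34 and 2.49 times lower in the mutants and 2.34 times lower in WT, the only locus where WT lay within the range of the mutants. All 8 core genes together held 4531 ± 262, 5139 ± 223 and 4243 ± 322 TPM in starved hsh49::Q24P, nam8D and mud1D and 6915 ± 130 TPM in starved WT, against 12094 to 13072 TPM by group mean in log phase. H3 made up 39.6%, 33.9% and 37.7% of core histone RNA in the starved mutants and 27.9% in starved WT, against 24.4% to 25.1% in log phase. H2B made up 14.3%, 17.2% and 13.4% in the starved mutants and 21.6% in starved WT, against at most 20.7% by group mean in log phase.

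**Figure D4:**
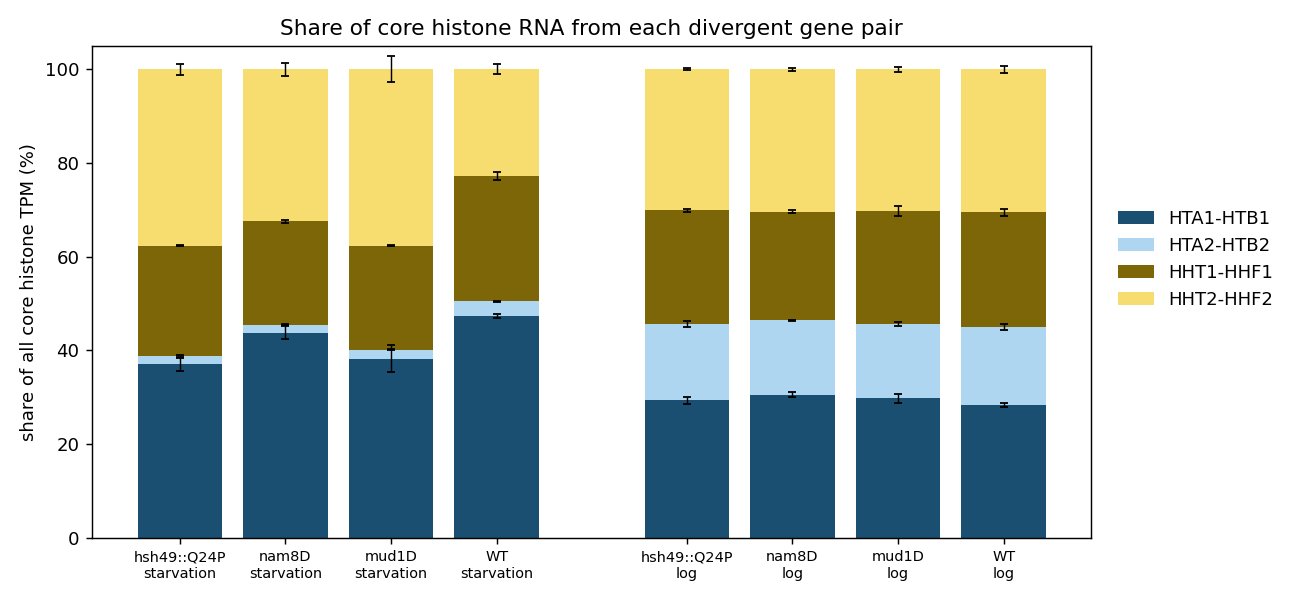
Share in percent of the summed TPM of the 8 core histone genes that came from each divergent gene pair, as stacked group means with the SD of 3 libraries; starved groups are on the left. The HTA2-HTB2 segment is 1.71% to 3.11% in starvation and 15.8% to 16.6% in log phase.

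HTZ1, the gene of H2A.Z, fell in all 4 genotypes, and its share beside H2A was higher in the starved mutants than in log phase but not in starved WT. It stood at 154, 144 and 153 TPM in starved hsh49::Q24P cultures, at 124, 152 and 146 TPM in starved nam8D, at 141, 139 and 138 TPM in starved mud1D and at 112, 114 and 120.5 TPM in starved WT, against 187 to 209 TPM in log phase. The starved WT libraries were below every starved mutant library. Its log2 difference was -0.43 ± 0.0595, -0.51, -0.52 and -0.73, with limma adjusted p from 6.42e-10 to 1.21e-06. As a share of HTZ1, HTA1 and HTA2 together, it made up 12.04 ± 1.64%, 8.84 ± 1.12% and 11.1 ± 1.93% in the starved mutants and 5.47 ± 0.194% in starved WT, against 5.58% to 6.05% in log phase.

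HHO1, the linker histone gene, was the only histone gene that passed upward in starvation, and only in hsh49::Q24P and mud1D. It stood at 168, 181 and 205 TPM in starved hsh49::Q24P cultures, at 105.4, 138 and 148 TPM in starved nam8D, at 205, 198 and 166 TPM in starved mud1D and at 122, 124 and 111 TPM in starved WT, against 108 to 119 TPM in log phase. Starved hsh49::Q24P and mud1D libraries overlapped each other and lay above all other libraries. The difference was 0.71 ± 0.102 and 0.75 in these mutants (limma adjusted p = 1.98e-06 and 9.82e-07), and -0.40 and -0.13 with spike-in scaling, which turns the direction. In nam8D it was 0.20 (limma adjusted p = 0.0717) and in WT 0.09 (limma adjusted p = 0.397). Set against the mean of the 4 core histone sums, HHO1 RNA stood at 16.4%, 10.2% and 18.1% in the starved mutants and 6.89% in starved WT, against 3.44% to 3.69% in log phase.

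In log phase no histone gene passed between a mutant and WT. In limma 0 of 10 histone genes passed in hsh49::Q24P, nam8D or mud1D against WT, where 0.465%, 0.295% and 0.915% of tested genes passed in either direction; 0, 1 and 1 had an unadjusted p under 0.05. The differences ran from -0.00158 to 0.13 in hsh49::Q24P, from -0.0328 to 0.25 in nam8D and from 0.00953 to 0.21 in mud1D. The largest were those of HTA1 in nam8D, at 0.25 ± 0.106, and of HTB1 in mud1D, at 0.21 ± 0.0934. HTA1 ran from 1985 to 2104 TPM in log-phase nam8D libraries and from 1686 to 1799 TPM in log-phase WT libraries. Ranges that did not overlap WT were those of HTB1, HTB2, HHT1 and HTZ1 in hsh49::Q24P (4 of 10, against 15.8% of tested genes), HTA1 and HTZ1 in nam8D (2 of 10, 34.5%) and HTB1, HTB2 and HHT1 in mud1D (3 of 10, 18.3%), all above WT.

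In starvation the mutants held less RNA of 6 core genes than WT and more HTZ1 RNA. Changed genes, all lower, were HTA2, HTB1 and HHF1 in hsh49::Q24P (3 of 10, against 7.41% of tested genes), HTA2 in nam8D (1 of 10, 7.86%) and HTA2, HTB1 and HHF1 in mud1D (3 of 10, 8.87%). Including smaller differences, HTA1, HTA2, HTB1, HTB2, HHT1 and HHF1 passed downward in each mutant, 6 of 10 where 35.1%, 32.2% and 37% of tested genes did. Upward, 2, 1 and 2 passed, where 25.1%, 27.8% and 27.6% of tested genes did. The log2 difference of HTA2 was -1.90 ± 0.0952, -1.80 and -1.86 and that of HTB1 -1.24 ± 0.0934, -0.77 and -1.43. HHF1 stood at -1.03 ± 0.086, -0.87 and -1.20. HHT2 and HHF2 did not pass in any mutant: HHT2 stood at 0.12, 0.05 and -0.04 and HHF2 at 0.08, 0.16 and 0.15, with limma adjusted p of at least 0.0778. HTZ1 was higher by 0.38 ± 0.0595, 0.28 and 0.26, and HHO1 by 0.63 ± 0.102 in hsh49::Q24P and 0.66 in mud1D; with spike-in scaling HTZ1 was at -0.0444, -0.15 and 0.05, and HHO1 at 0.20 and 0.45, none of which passed. With spike-in scaling 5 histone genes changed downward in hsh49::Q24P and 3 in nam8D, where quantile normalization gave 3 as well. Spike-in scaling called 1110 and 1063 of 6449 tested genes changed downward in these mutants, and quantile normalization 443 in nam8D. The deposited scale gave 478 and 507.

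The starvation responses of the mutants differed from that of WT in the same genes. The interaction terms share the WT libraries, so the 3 sets of values are not independent. They also use the starved libraries compared above, and no histone gene passed in log phase, so they are not a separate result. In limma 8, 7 and 8 of 10 histone genes passed in either direction in hsh49::Q24P, nam8D and mud1D, where 46%, 47.4% and 49.7% of tested genes did. The same genes as in starvation changed downward: 3 of 10 in hsh49::Q24P (7.88% of tested genes), 1 in nam8D (8.76%) and 3 in mud1D (9.57%). The term for HTA2 was -1.90 ± 0.135, -1.85 and -1.88, for HTB1 -1.36 ± 0.132, -0.90 and -1.64 and for HHF1 -1.05 ± 0.122, -0.84 and -1.27. Without nam8D starvation replicate 1 the nam8D count was 2, with HTB1 added at -1.02. With spike-in scaling the count was 6 of 10 in each mutant, where the median of all tested genes moved to -0.86, -0.74 and -0.65. That scaling also called 2568, 2128 and 1822 of 6449 tested genes changed downward, where the deposited scale gave 508, 565 and 617. HHT2 and HHF2 had terms between -0.15 and 0.07, none of which passed in limma.

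**Figure D5:**
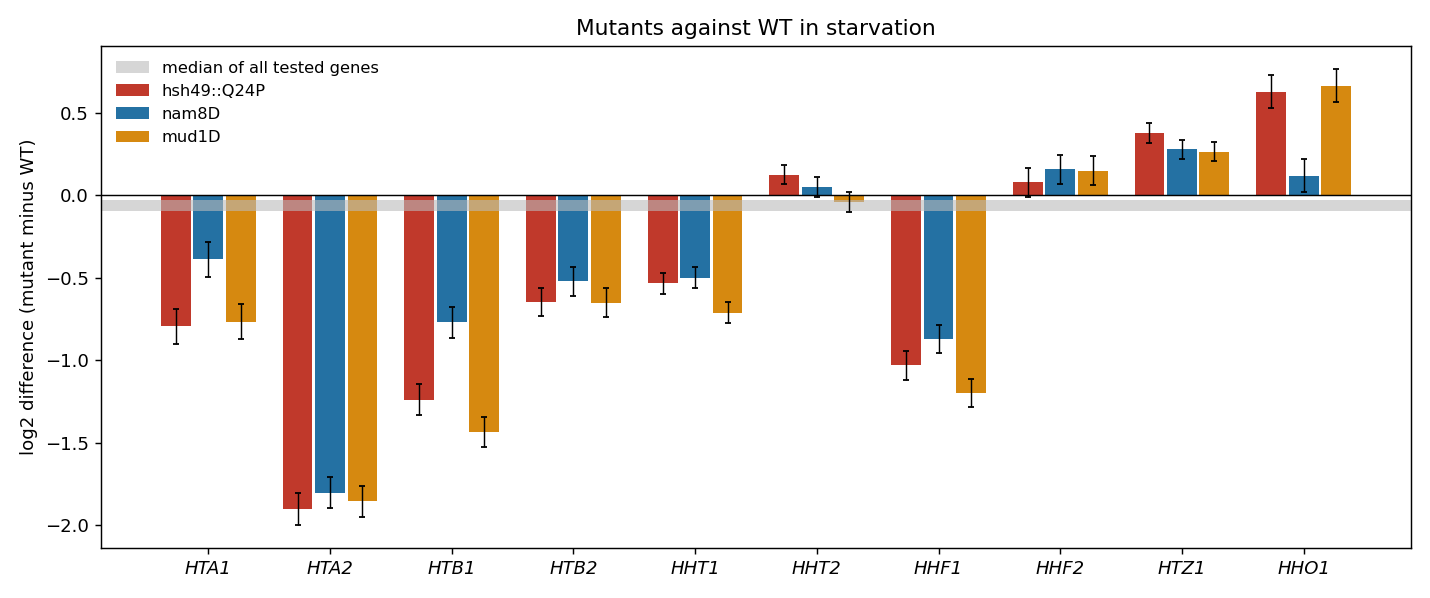
Difference between each mutant and WT in starvation on the log2(TPM + 1) scale for each histone gene; error bars are the limma standard error, and the grey band spans the median of all tested genes, -0.10 to -0.03. HTA2, HTB1 and HHF1 have the longest bars downward, and HHT2 and HHF2 stay near 0.

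Of 19 genes that regulate histone transcription, 0 changed downward in starvation in any genotype. Of tested genes, 14.1%, 10.3%, 14.9% and 9.01% did in hsh49::Q24P, nam8D, mud1D and WT. Upward, 2, 2, 2 and 4 changed, against 28.5%, 27.4%, 28.2% and 26.2% of tested genes. The list median was 0.43, 0.58, 0.51 and 0.64. HIR1, a subunit of the repressing HIR complex, rose by 1.09 ± 0.101, 1.35, 1.21 and 1.00. HCM1, a forkhead transcription factor of S phase, rose by 1.31 ± 0.218 in WT and was lower in the starved mutants than in starved WT, at -1.37 ± 0.218, -1.49 and -1.43.

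Among 18 genes of histone chaperones and import, 5, 4 and 5 changed downward in starved hsh49::Q24P, nam8D and mud1D and 1 in starved WT, where 14.1%, 10.3%, 14.9% and 9.01% of tested genes did. Upward, 3, 3, 3 and 4 changed, where 28.5%, 27.4%, 28.2% and 26.2% of tested genes did. VPS75, a chaperone of H3 and H4, stood at -2.03 ± 0.0733, -2.09 and -2.41 in the mutants against log phase, and in the starved mutants against starved WT at -1.59, -1.40 and -1.88. HIF1, a histone chaperone that works with the acetyltransferase Hat1, was lower than in starved WT, at -1.26 ± 0.11, -1.15 and -1.43. KAP123, an importer of histones, fell in starvation, at -1.93 in hsh49::Q24P and -1.79 in mud1D. In nam8D it was not among the 2 largest falls, so its value is not given. The 1 gene that changed downward in starved WT was NHP6A, not KAP123 or VPS75. PSH1, a ubiquitin ligase for the centromeric H3, rose by 1.14, 1.15, 1.18 and 1.26. NHP6A, a high mobility group protein, fell, at -1.76, -1.99, -1.78 and -1.47, and its near copy NHP6B rose by 1.65, 1.04, 1.19 and 1.17; the split of reads between them is uncertain.

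Of 19 genes of the SWR1 and INO80 complexes, which exchange H2A.Z, 7, 6, 7 and 4 changed upward, near the 28.5%, 27.4%, 28.2% and 26.2% of all tested genes. Downward, 2, 0, 1 and 0 changed, where 14.1%, 10.3%, 14.9% and 9.01% of tested genes did. VPS72, the SWR1 subunit that binds H2A.Z, rose by 1.60 ± 0.0636, 1.65, 1.69 and 1.29, and SWC5 by 1.65 ± 0.0936, 1.41, 1.47 and 1.39. RVB1 and RVB2, ATPases shared by both complexes, stood at -1.26 and -1.04 in hsh49::Q24P, and RVB1 also changed in mud1D, at -1.02. Of 39 S phase replication genes, 6, 5 and 7 changed downward in the starved mutants, near the 14.1%, 10.3% and 14.9% of all tested genes. In starved WT 0 did, where 9.01% of tested genes did. Upward, 1, 2, 1 and 1 changed, where 28.5%, 27.4%, 28.2% and 26.2% of tested genes did. The list median was -0.22, -0.10, -0.17 and 0.27, where that of all tested genes was 0.39, 0.43, 0.36 and 0.47. Against starved WT, 8, 7 and 11 of the 39 replication genes were changed downward, where 7.41%, 7.86% and 8.87% of tested genes were. CDC21, thymidylate synthase, stood at -1.84 ± 0.157, -1.95 and -1.89 and POL30, the sliding clamp PCNA, at -1.38 ± 0.198, -1.82 and -1.52. Of 25 tested tail modifiers, 8, 8, 9 and 7 changed upward, near the 28.5%, 27.4%, 28.2% and 26.2% of all tested genes. Downward, 1, 1, 1 and 0 changed, where 14.1%, 10.3%, 14.9% and 9.01% of tested genes did. The largest rise in the mutants was that of LGE1, a partner of the H2B ubiquitin ligase, at 2.22 ± 0.0559, 2.14 and 2.10. In starved WT LGE1 was not among the 2 largest rises, so its value is not given. HAT1, the acetyltransferase of new H4, was lower than in starved WT, at -1.19 ± 0.106 in hsh49::Q24P and -1.18 in mud1D. Of 6 genes of chromatin architecture, 2 changed upward and 1 downward in each genotype, where 26.2% to 28.5% of tested genes changed upward and 9.01% to 14.9% downward. SCM3, the chaperone of the centromeric H3, stood at 1.23 in WT. The changed genes were NHP6A and NHP6B in each genotype, SPT2 in the mutants and SCM3 in WT. All of them are also counted among the genes of chaperones and import. In log phase no gene of these lists passed between a mutant and WT in limma.

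Among 4770 other named genes that averaged 10 TPM or more, the group means of ERG2, an enzyme of ergosterol synthesis, followed the mean of the 8 core genes most closely, at Pearson r = 0.9999 over the 8 groups. ERG6, DSE2, SAD1, SOL3, ADE13, TDH2, RPL9A, GPM1 and ODC2 came next, with r between 0.9982 and 0.9992. HTZ1 was followed most closely by EXG2, MRS3 and YGK1 (r between 0.984 and 0.987) and HHO1 by HDA1, RDL2 and YHM2 (r between 0.979 and 0.987). The points share their libraries and are dominated by the step between growth states, so these are descriptions.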

How the data were processed

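RNA was measured in 24 libraries of 8 groups; per the labels' protocols, RNA was extracted with hot acid phenol, treated with DNase, poly(A)-selected and made into directional libraries. STAR 2.7.9a, Trimmomatic 0.39 and FastQC 0.11.9 are the tools listed, per the submitters' processing notes; the genome build, annotation and read assignment are not given in the sources used here. The deposited values are TPM under the name coco, made by the authors, and sum to between 999639 and 999881 in each library. With no counts, depth is unknown and no counting interval is given. The tor1 mutant that the series' design names was not analysed here. The labels call the 3 libraries of a group biological replicates.

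Of 8009 lines, 7121 name a gene, and 6449 with at least 1 TPM in at least 3 libraries were tested; 92 spike-in lines and 4 empty lines were left out. log2(TPM + 1) was fitted with limma 3.58.1 in R 4.3.3, with 1 mean for each group and an intensity trend, in 13 comparisons, adjusted by Benjamini-Hochberg over genes. The adjusted threshold was 0.05, and a fold change is on the log2(TPM + 1) scale, which understates changes of low genes. Copy ratios were tested by permuting growth states within genotype. Sequences came from RefSeq R64, matched by gene identifier. Scripts ran in R and in Python with matplotlib, and were tested on simulated data.

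The histone genes and the 6 gene lists were chosen with earlier results of these data known. All 10 histone genes are described. From each list, up to 2 changed genes in each direction and comparison with a mean of at least 10 TPM could be named, and the closest patterns were taken by Pearson r, 10 for the core mean and 3 each for HTZ1 and HHO1. Alternatives were other pseudocounts (0.1 and 5), filters and scalings, a replicate block, other fits, and leaving out each library.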

Additional observations from a re-analysis of the deposited data

Results flagged for a closer look

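Of 30 terms that compare the starvation response of a mutant with that of WT in a histone gene, 23 passed the adjusted threshold in limma, where 46%, 47.4% and 49.7% of tested genes passed in hsh49::Q24P, nam8D and mud1D. Of the 23, 7 were at least 1 on the log2 scale, all lower, where 7.88%, 8.76% and 9.57% of tested genes were. In hsh49::Q24P these were HTA2, HTB1 and HHF1, whose responses were lower than in WT by -1.90, -1.36 and -1.05. In nam8D the response of HTA2 was lower by -1.85. In mud1D the responses of HTA2, HTB1 and HHF1 were lower by -1.88, -1.64 and -1.27. All 3 comparisons use the same WT libraries, and the same starved libraries as the comparison of mutants with WT in starvation.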

How the results depend on the processing

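The count of histone genes lower in starvation than in log phase ran from 6 to 9 in each mutant over the alternatives. With spike-in scaling 2367, 2153 and 2023 of 6449 tested genes changed downward in hsh49::Q24P, nam8D and mud1D. The deposited scale gave 910, 662 and 959. In WT the count of 3 became 7 with median centring, 7 with trimmed mean scaling and 6 with spike-in scaling. Over all tested genes the WT counts were 1038, 1018 and 817 of 6449 in that order, where the deposited scale gave 581. Against WT in starvation, spike-in scaling gave 5 in hsh49::Q24P and 3 in nam8D, and quantile normalization gave 3 in nam8D. Of all tested genes, spike-in scaling called 1110 and 1063 lower in these mutants and quantile normalization 443 in nam8D (478 and 507 as deposited). For the starvation response against that of WT, spike-in scaling gave 6 in every mutant (hsh49::Q24P 6, nam8D 6, mud1D 6), quantile normalization gave 3 in nam8D, and leaving out 1 library gave 1 to 2 in nam8D. For these terms spike-in scaling called 2568, 2128 and 1822 of 6449 tested genes lower, where the deposited scale called 508, 565 and 617. Quantile normalization called 502 lower in nam8D. Spike-in scaling moved the median of all genes in starvation against log phase to -0.63, -0.54, -0.42 and 0.20 in hsh49::Q24P, nam8D, mud1D and WT. It turned HHO1 in starvation against log phase to -0.40 in hsh49::Q24P and -0.13 in mud1D, HTZ1 against WT in starvation to -0.0444 in hsh49::Q24P and -0.15 in nam8D, and the response terms of HTZ1 to -0.51, -0.56 and -0.37 in hsh49::Q24P, nam8D and mud1D and of HHO1 to -0.20 in hsh49::Q24P. Quantile normalization turned HTB1 in WT to 0.29. The ratio of H2A and H2B to H3 and H4 was -0.26 without WT, on the other side of the threshold from the -0.12 with it; WT stood at 0.31 and hsh49::Q24P, nam8D and mud1D at -0.40, -0.0555 and -0.32. The cause of these shifts was not tested. The 83 single-gene results that passed on the deposited scale were followed under other settings. Of their 913 values there, 894 kept their direction and their side of the threshold, and of 636 with 1 library left out, 617 did. Results that did not pass were not counted, so a move of theirs past the threshold could not appear. With replicate numbers as a block, the counts stayed at 6, 6, 6 and 3 in starvation and at 3, 1 and 3 against WT, in starvation and in the response terms alike. Same-numbered libraries of a genotype correlated in their deviations at -0.17 to 0.20, over 0.1 in 3 of 12 pairs. Over same-numbered libraries of all groups the range was -0.67 to 0.46, over 0.1 in 19 of 84 pairs. Whether the numbers pair the libraries was not tested. Depth is unknown, so its limit on low values cannot be given.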
